A study of Homo sapiens with 6 samples.

Results

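Immediate early genes are switched on within minutes of a growth factor, serum or stress signal, without new protein synthesis, and the MAPK feedback genes are induced by the same cascades and then damp them. The genes described here are FOS, FOSL1, JUN and JUNB, which encode subunits of the transcription factor AP-1, with EGR1, ATF3 and IER3, and with the dual-specificity phosphatase genes DUSP1, DUSP5 and DUSP6. They were chosen with earlier results of these data known, and their probes were found by gene symbol in the platform's probe annotation. Of the 10 genes, 9 had a probe among the 24526 probes analysed here, 11 probes in all, and IER3, which encodes an early response protein tied to cell survival, had none.

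Expression was measured in the human prostate cancer line PC3, an established cell line, on 6 Illumina HumanRef-8 v3 BeadChip arrays. On 3 arrays the cells carried a transgene for GRK3, the G protein-coupled receptor kinase that adds phosphate to receptors in their active state, and on the other 3 arrays the control cells carried green fluorescent protein (GFP). Both populations grew in RPMI medium with serum and antibiotics, and the labels name no stimulus, cell density or time since the last change of medium. The sources used here name neither the promoter of the transgenes nor whether a population is a pool or a clone.

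AP-1 is a dimer of basic leucine zipper proteins. Fos proteins bind DNA only together with a partner such as a Jun protein, while Jun proteins can also pair with each other or with ATF proteins. ERK, JNK and p38 kinases drive transcription of these genes through serum response elements (CArG boxes) and cAMP response elements (CRE), and the dual-specificity phosphatases remove the activating phosphates from those kinases.

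Promoter windows from RefSeq (GRCh38.p14), running from 250 bases before each gene's start and 300 bases long, were on hand for 7 of the 10 genes. FOSL1, IER3 and DUSP5 had no window. The windows of EGR1, JUN, DUSP1 and ATF3 are shown because they held matches to the CArG box or to the CRE or its variants. These are matches of letters alone, and use of the sites was not tested. Capitals mark matches, on either strand, to the AP-1 element TGANTCA, the CRE and its ATF/Jun variants TGACNTCA, the CRE core TGACG, the EGR site GCGNGGGCG and the CArG box. A CRE with G at its variable base contains the core on both strands, so those matches overlap.
EGR1 (chr5:138465229-138465528, strand +): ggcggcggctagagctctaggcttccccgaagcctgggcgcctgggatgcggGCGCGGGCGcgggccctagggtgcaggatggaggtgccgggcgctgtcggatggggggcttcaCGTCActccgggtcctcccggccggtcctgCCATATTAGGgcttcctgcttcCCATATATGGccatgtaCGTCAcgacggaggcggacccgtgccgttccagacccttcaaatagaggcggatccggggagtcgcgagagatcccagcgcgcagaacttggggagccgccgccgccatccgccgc
JUN (chr1:58783998-58784297, strand -): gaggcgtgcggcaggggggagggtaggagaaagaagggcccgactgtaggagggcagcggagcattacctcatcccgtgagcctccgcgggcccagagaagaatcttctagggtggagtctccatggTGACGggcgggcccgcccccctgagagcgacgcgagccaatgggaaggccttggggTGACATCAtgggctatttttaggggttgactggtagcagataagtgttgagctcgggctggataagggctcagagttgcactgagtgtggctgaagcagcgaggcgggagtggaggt
DUSP1 (chr5:172771146-172771445, strand -): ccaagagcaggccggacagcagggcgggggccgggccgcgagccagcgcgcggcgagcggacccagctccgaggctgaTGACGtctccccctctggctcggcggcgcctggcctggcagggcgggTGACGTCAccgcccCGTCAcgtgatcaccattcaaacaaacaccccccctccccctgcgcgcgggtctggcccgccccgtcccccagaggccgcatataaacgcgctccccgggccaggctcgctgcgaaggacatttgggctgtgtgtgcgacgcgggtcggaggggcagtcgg
ATF3 (chr1:212565157-212565456, strand +): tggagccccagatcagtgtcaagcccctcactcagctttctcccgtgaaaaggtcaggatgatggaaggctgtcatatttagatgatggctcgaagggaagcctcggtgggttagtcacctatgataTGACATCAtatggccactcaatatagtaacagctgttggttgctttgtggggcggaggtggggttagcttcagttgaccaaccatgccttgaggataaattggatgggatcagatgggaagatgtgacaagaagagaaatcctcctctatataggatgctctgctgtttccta

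The EGR1 window held 2 CArG boxes, which begin 105 and 83 bases before the start, and CArG boxes occurred in 1.29% of the 35116 windows of this length. It also held 2 CRE cores and 1 EGR site. The JUN window held TGACATCA, beginning 67 bases before the start, and 1 CRE core. DUSP1 held the full palindrome TGACGTCA 125 bases before its start, among 4 matches to the core. The ATF3 window shown, the more upstream of 2 in the table, held TGACATCA 123 bases before the start, and its other window held no match. FOS and JUNB each held 1 CRE core, and DUSP6 held no match to any of these letters. Over all windows, TGACNTCA was present in 7.72%, the core in 24.6%, the EGR site in 9.43% and TGANTCA in 7.71%; no window of these 7 genes held TGANTCA.

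Mean signal per array was 1171 to 1387, and 13780 to 14363 probes per array were detected at a detection p under 0.05. The probe for GRK3 was detected on 0 of the 6 arrays and so gives no check of the labels. All 5 epithelial markers (KRT8, KRT18, KRT19, EPCAM and CDH1) were detected, and 0 of the 3 luminal prostate markers with a probe were detected on at least 3 arrays, KLK3 and TMPRSS2 on none. Among markers of other cells, the leukocyte genes PTPRC and CD3E, the endothelial genes VWF, CDH5, KDR and TEK and the fibroblast genes DCN and COL1A2 were detected on 0 arrays, whereas CD68, CD14, PECAM1, LUM and COL1A1 passed the filter. The summed signal of each marker list overlapped between the groups: 1227 to 1435 on GRK3 arrays against 1193 to 1467 on GFP arrays for leukocyte markers, 1142 to 1286 against 1048 to 1314 for endothelial markers, and 466 to 516 against 462 to 523 for fibroblast markers. GRK3 replicate 1 stood apart from the other GRK3 arrays. On the leading principal component, which held 41.0% of the variance, it scored -3.02, against 11.1 and 18.9 for GRK3 replicates 2 and 3 and -0.06, -9.12 and -17.8 for GFP replicates 1 to 3. Where leaving it out made a call of a gene named here, the value without it is given, beside values with other GRK3 arrays left out. Such calls depend on which array is left out.

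None of the 8 immediate early and feedback genes that could be tested passed the comparison between GRK3 and GFP cells. The nearest were FOSL1, 1.50-fold lower, and ATF3, 1.67-fold lower in GRK3 cells, while the ERK phosphatase gene DUSP5 had the largest positive difference, 1.39-fold. Signals were corrected for background, normalized between arrays by quantiles and log2-transformed, and a probe passed at a limma adjusted p under 0.05 over the 14130 probes detected on at least 3 arrays. Of the 11 probes, 9 probes of 8 genes met that filter. With limma, 0 of these 9 probes passed, where 0.573% of all tested probes did (0.375% higher and 0.198% lower, 53 and 28 probes; 58 higher and 56 lower in the authors' mean-scaled table). At an unadjusted p under 0.05 there were 3 probes, 2 lower and 1 higher, against 11.6% of all probes (5.44% lower and 6.14% higher). The 3 GRK3 arrays lay wholly below the 3 GFP arrays for 3 of the 9 probes, against 8.38% of all probes, and wholly above for 0, against 8% of all probes. Because the genes were chosen with earlier results of these data known, these counts are not independent of the choice. Medians of the difference were -0.06 over these 9 probes and -0.01 over all tested probes, on the log2 scale. In cultured populations measured in bulk, fewer cells expressing a gene and less RNA per cell cannot be told apart. Nothing in the labels tells whether replicate arrays were grown as separate cultures, and the p-values therefore reflect only array-to-array spread, possibly technical.

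**Figure D1:**
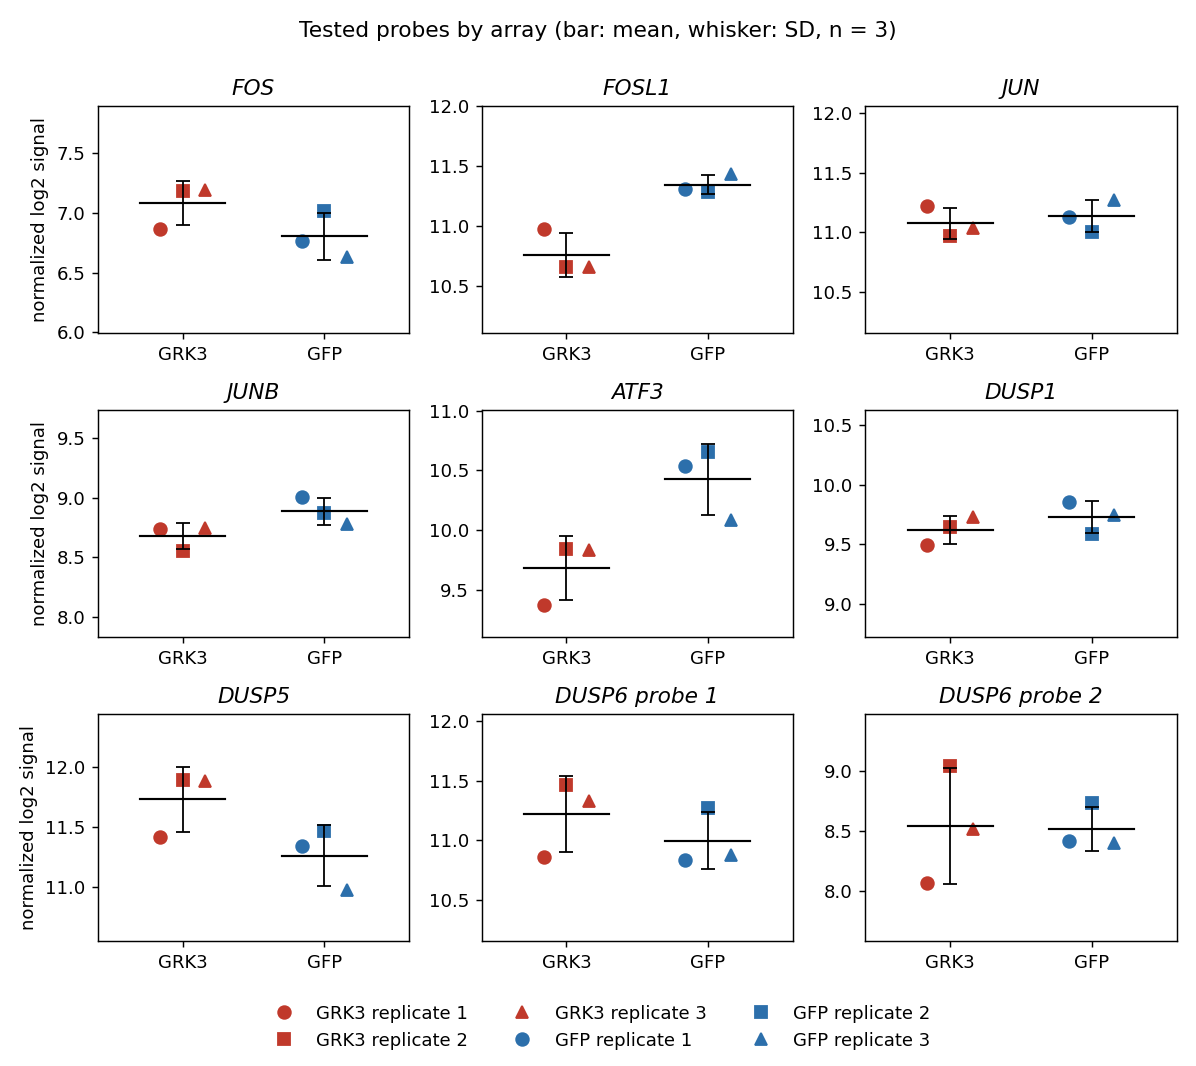
Normalized log2 signal (vertical axis) of the 9 tested probes on each GRK3 array (red, left) and GFP array (blue, right), each panel spanning the same log2 range; the bar is the group mean and the whisker the SD of 3 arrays. FOSL1, ATF3 and JUNB have all GRK3 points below all GFP points, with a gap of 0.03 for JUNB, and the other 6 probes overlap.

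FOSL1 encodes FRA-1, the Fos protein whose transcription is sustained by continued ERK activity. On the normalized log2 scale it read 10.97, 10.65 and 10.65 on GRK3 replicates 1 to 3, against 11.31, 11.29 and 11.43 on the GFP replicates. The groups did not overlap, and the gap between the highest GRK3 array and the lowest GFP array was 0.31. The deposited signals, before any normalization, were apart as well, at 2054, 1759 and 1492 on GRK3 arrays and 2424, 2612 and 3090 on GFP arrays. Means were 10.76 ± 0.18 in GRK3 cells and 11.34 ± 0.08 in GFP cells (SD, n = 3 each), a difference of -0.58 ± 0.11 (SE; 95% interval -0.83 to -0.34). The limma adjusted p was 0.0567, which misses the threshold. FOSL1 ranked 95 of the 14130 probes by p. GRK3 replicate 1 was the GRK3 array nearest to the GFP arrays. Without it the difference was -0.69 and the limma adjusted p 0.0106, a call; without any 1 of the other arrays the adjusted p lay between 0.135 and 0.207. Over all 16 alternatives the adjusted p of FOSL1 ran from 0.0103 to 0.243, and it passed in 6.

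FOS, the founding Fos gene and a classical early target of serum response factor, was detected on all 6 arrays at detection p-values of up to 0.0194. It read 6.87, 7.18 and 7.19 on GRK3 arrays and 6.76, 7.02 and 6.63 on GFP arrays. GRK3 replicate 1 lay between GFP replicates, so the groups overlapped. The difference was 0.28 ± 0.13 (SE), opposite in sign to that of FOSL1. Its 95% interval ran from -0.01 to 0.57, and its limma adjusted p was 0.456. FOS was dim, and its difference was 0.17 without background correction and 0.16 with the authors' value table.

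The Jun genes differed by less than FOSL1. JUN, whose product is the main partner of Fos proteins and which is phosphorylated by JNK, read 11.22, 10.97 and 11.03 on GRK3 arrays against 11.13, 11.00 and 11.27 on GFP arrays. Its values overlapped throughout, and the difference was -0.06 ± 0.11 (SE; 95% interval -0.30 to 0.18; limma adjusted p = 0.887). JUNB, a Jun protein that can restrain JUN activity, read 8.74, 8.55 and 8.75 on GRK3 arrays and 9.00, 8.87 and 8.78 on GFP arrays. All GRK3 values lay below all GFP values, but the gap of 0.03 was smaller than the SD within either group (0.11 in both). Its difference was -0.21 ± 0.10 (SE; 95% interval -0.43 to 0.02), with a limma adjusted p of 0.48.

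EGR1, a zinc finger factor induced through CArG boxes such as those capitalised in its window above, was not detected on any array. Its deposited signals were 87.8, 75.8 and 77.5 on GRK3 arrays and 75.3, 101.2 and 87.3 on GFP arrays, with detection p-values from 0.0777 to 0.35. These signals cannot be told from those of the negative control probes, so no fold is given and the probe was not tested.

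ATF3, a basic leucine zipper protein induced by stress that can pair with Jun proteins and often represses transcription, had 2 probes. The probe that was detected read 9.37, 9.85 and 9.83 on GRK3 arrays, against 10.53, 10.66 and 10.09 on GFP arrays. Every GRK3 value lay below every GFP value, by at least 0.24, with GFP replicate 3 nearest to the GRK3 arrays. The deposited signals behind them were 713, 1029 and 867 on GRK3 arrays and 1441, 1701 and 1253 on GFP arrays, which do not overlap either. The mean was 9.68 ± 0.27 in GRK3 cells and 10.42 ± 0.30 in GFP cells (SD, n = 3 each), and the difference was -0.74 ± 0.17 (SE; 95% interval -1.12 to -0.36; limma adjusted p = 0.106). The SD within each group was larger than for FOSL1. ATF3 passed in 3 of 16 alternatives, with an adjusted p from 0.0364 to 0.349. Without GRK3 replicate 1, the GRK3 array farthest from the GFP arrays, the difference shrank to -0.59, with a limma adjusted p of 0.129. The other ATF3 probe, annotated to another transcript, was detected on 0 arrays, with detection p-values from 0.521 to 0.922, and was not tested.

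**Figure D2:**
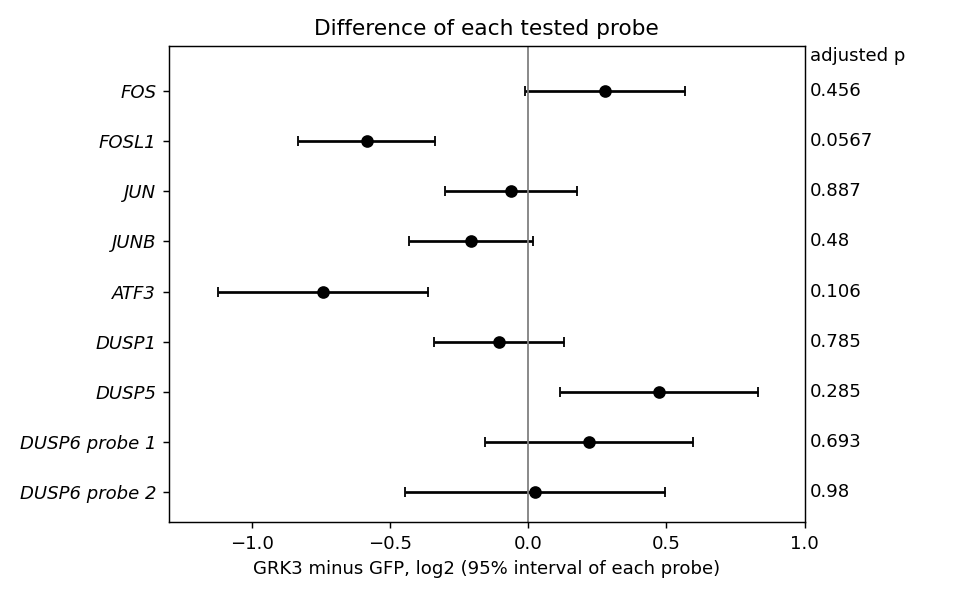
Difference between GRK3 and GFP cells (horizontal axis, log2) for each tested probe, with its 95% interval from the limma fit and, at the right, the adjusted p over all tested probes. The intervals of FOSL1, ATF3 and DUSP5 leave out 0 without adjustment for the number of probes, the first pair on the negative side and DUSP5 on the positive side, and no adjusted p is under 0.05.

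None of the probes of DUSP1, DUSP5 and DUSP6 passed with limma, and among them DUSP5 alone had an unadjusted p under 0.05. DUSP5, whose nuclear product acts on ERK, read 11.42, 11.89 and 11.89 on GRK3 arrays and 11.34, 11.47 and 10.97 on GFP arrays. GRK3 replicates 2 and 3 lay above all GFP arrays, while GRK3 replicate 1 lay just under GFP replicate 2, so the groups overlapped by 0.05. The difference was 0.47 ± 0.16 (SE; 95% interval 0.11 to 0.83; limma adjusted p = 0.285). Without GRK3 replicate 1 it was 0.63 with an adjusted p of 0.0759, the lowest of its 16 alternatives, and 0.617 was the highest.

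DUSP6, the cytoplasmic ERK phosphatase and a standard readout of ERK pathway output, was measured by 2 probes. The brighter read 10.86, 11.46 and 11.33 on GRK3 arrays and 10.84, 11.27 and 10.88 on GFP arrays. The dimmer read 8.07, 9.04 and 8.52 on GRK3 arrays and 8.41, 8.73 and 8.40 on GFP arrays. Within each group both probes put the same array at the top, replicate 2 in each case, and within GRK3 both put replicate 1 at the bottom. Their differences were 0.22 ± 0.17 and 0.03 ± 0.21 (SE), with limma adjusted p-values of 0.693 and 0.98, and 95% intervals from -0.16 to 0.60 and from -0.44 to 0.50. The dimmer probe ranged over 0.97 among GRK3 arrays alone. Leaving out GRK3 replicate 1 gave 0.40 and 0.26 for the brighter and the dimmer probe, and leaving out GRK3 replicate 2 gave 0.098 and -0.22, none of them a call.

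DUSP1, whose product inactivates p38 and JNK as well as ERK in the nucleus, read 9.49, 9.64 and 9.72 on GRK3 arrays and 9.85, 9.58 and 9.74 on GFP arrays. The groups overlapped. Its difference was -0.11 ± 0.10 (SE; 95% interval -0.34 to 0.13; limma adjusted p = 0.785).

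The median SD within a group over the 9 probes was 0.18 in GRK3 cells and 0.19 in GFP cells, against 0.12 and 0.11 over all tested probes; this difference in spread was not tested. For 5 of the 9 probes the range among the 3 GRK3 arrays exceeded the difference between the groups. GRK3 replicate 1 was the lowest GRK3 array for 6 of the 9 probes, namely FOS, ATF3, DUSP1, DUSP5 and both probes of DUSP6. Relative to the mean of GRK3 replicates 2 and 3 it was offset by -0.71 and -0.54 at the DUSP6 probes, by -0.47 at both DUSP5 and ATF3, by -0.32 at FOS and by -0.19 at DUSP1. FOSL1, JUN and JUNB went the other way, at 0.32, 0.22 and 0.08. Among GFP arrays, replicate 3 was the lowest for 5 probes, and ATF3 and DUSP5 deviated there from the GFP mean by -0.34 and -0.29. FOS, ATF3, DUSP5 and DUSP6 were each highest among GFP arrays on replicate 2. The source of this spread was not tested.

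**Figure D3:**
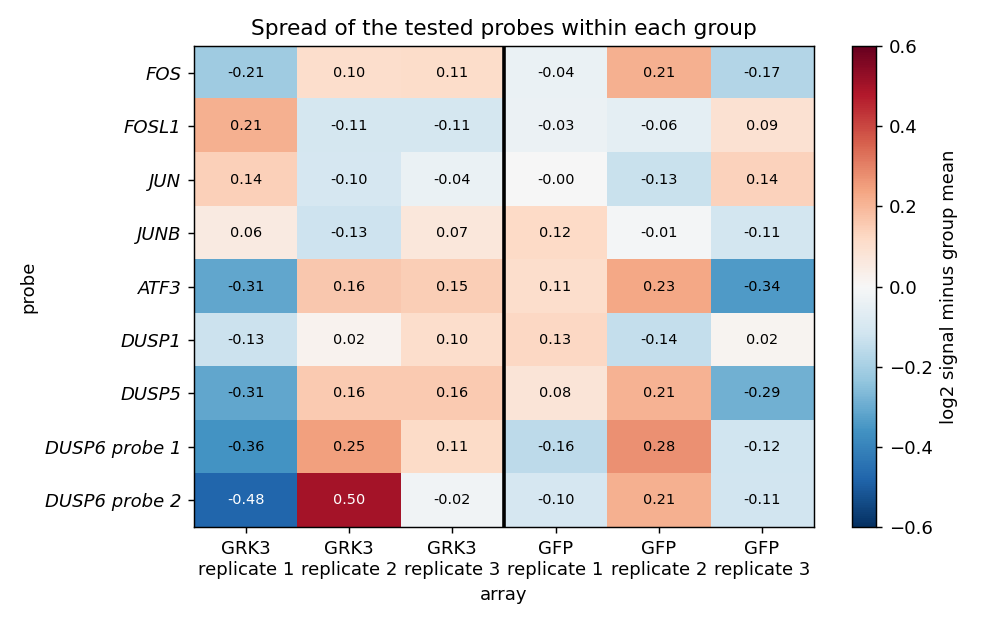
Deviation of each tested probe (rows) from its own group mean on each array (columns; colour and printed value in log2 units; the black line separates GRK3 from GFP arrays). On GRK3 replicate 1 the cells for FOS, ATF3, DUSP1, DUSP5 and DUSP6 are negative, down to -0.48, and those for FOSL1, JUN and JUNB are positive, up to 0.21.

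Related genes were read from lists, with 1 probe per gene, the tested probe with the highest mean. Of 19 other immediate early genes tested, 1 passed with limma and was lower, 18 did not pass, and the median difference was -0.09, beside 0.573% of all tested probes that passed and a median of -0.01. At an unadjusted p under 0.05 there were 4 genes, all lower, where 5.44% of all probes were lower and 6.14% higher; the same shares apply to the lists that follow. The 1 was KLF6, a zinc finger factor of the Krueppel-like family. KLF6 read 11.60, 11.73 and 11.52 on GRK3 arrays and 12.11, 12.26 and 12.30 on GFP arrays, so that the groups were 0.39 apart. It fell by 0.61 ± 0.10 (SE), 1.53-fold, with a limma adjusted p of 0.0318. The call held without GRK3 replicate 1 (0.0362) and ended without GRK3 replicate 2 (0.0811), GRK3 replicate 3 (0.137), GFP replicate 1 (0.055), GFP replicate 2 (0.172) or GFP replicate 3 (0.146). It also ended with no filter on dim probes (0.0638) and with the replicate number as a block (0.184), in a range from 0.00412 to 0.184 over its alternatives. The kinase gene SGK1 differed by -0.42 (limma adjusted p = 0.14), CCN1, a matricellular gene, by -0.36 (0.406) and KLF10, a TGF-beta-inducible factor, by -0.35 (0.309). KLF10 had 2 further tested probes, at -0.24 and 0.06. MYC, IER2 and ZFP36 had differences of -0.09, 0.02 and 0.10; they were chosen after their values were seen.

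None of the 14 other AP-1 and ATF/CREB genes tested passed with limma, and their median difference was -0.01. FOSL2, which encodes the Fos protein FRA-2, differed by -0.21 (limma adjusted p = 0.393), CREM, a cAMP-responsive factor, by 0.27 (0.289) and MAFF, a small Maf protein, by 0.13 (0.627). At an unadjusted limma p under 0.05, CREM and FOSL2 were the 2 genes of the list. FOSL2 was dim, with detection p-values of 0.0227 to 0.0291, and its difference was -0.12 without background correction.

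Among other MAPK phosphatases, 0 of 5 tested genes passed with limma (DUSP7 alone at an unadjusted p under 0.05), with a median of 0.04. DUSP7 differed by -0.22, DUSP16 by -0.19 and DUSP4, an ERK- and JNK-directed nuclear phosphatase, by 0.22, with limma adjusted p-values of 0.402, 0.636 and 0.723. The other DUSP4 probe differed by 0.45 (limma adjusted p = 0.228). That probe was dim, at a mean of 6.20 on the log2 scale. DUSP7 was dim too, with detection p-values of 0.0227 to 0.0324.

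None of 14 other ERK feedback and output genes passed with limma either, and 3 had an unadjusted p under 0.05 (SPRY4 and SPRY2 with positive differences, HBEGF with a negative one), with a median of 0.01. The largest difference was in SPRY4, a Sprouty inhibitor of receptor tyrosine kinase signalling. SPRY4 read 9.27, 9.97 and 10.00 on GRK3 arrays and 9.00, 8.98 and 8.71 on GFP arrays, with no overlap. Its difference was 0.85 ± 0.18 (SE), 1.80-fold, with a limma adjusted p of 0.0864, and of 0.00226 without GRK3 replicate 1, the GRK3 array on which it was lowest. With GRK3 replicate 2 or 3 left out instead, the limma adjusted p was 0.244 or 0.252. Over all its alternatives the adjusted p ran from 0.00226 to 0.279. SPRY1 and SPRY2, also Sprouty genes, had differences of 0.25 and 0.24 (limma adjusted p = 0.536 and 0.367); SPRY2 was added after its value was seen. HBEGF, an EGF receptor ligand, differed by -0.59 (limma adjusted p = 0.129). Without GRK3 replicate 1 HBEGF was at -0.73 and passed (0.0314), as it did in 3 of 16 alternatives, in a range from 0.0298 to 0.392. With GRK3 replicate 2 or 3 left out instead, the limma adjusted p of HBEGF was 0.31 or 0.381.

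Of 17 tested genes of the ERK cascade, 0 passed with limma, 3 were lower at an unadjusted p under 0.05 (EGFR, ELK3 and the ribosomal S6 kinase gene RPS6KA3), against 5.44% of all probes, and the median was -0.15. EGFR, the receptor at the head of the cascade, read 10.07, 10.20 and 10.07 on GRK3 arrays and 10.46, 10.59 and 10.54 on GFP arrays. These groups were 0.27 apart, and the difference was -0.42 ± 0.09 (SE), with a limma adjusted p of 0.0852. EGFR passed in 5 of 16 alternatives, with an adjusted p from 0.0364 to 0.307. Its other probe differed by -0.39 (limma adjusted p = 0.128). ELK3, a partner of serum response factor, differed by -0.31 (limma adjusted p = 0.321), and RPS6KA5, the ERK- and p38-activated kinase MSK1, by 0.30 (0.494). ELK3 was dim, with detection p-values of 0.0227 to 0.0356, and its difference was -0.17 without background correction. Of 12 genes of the JNK and p38 cascades 0 passed with limma and 1 had an unadjusted p under 0.05 (MAPKAPK3). Their median was -0.09, with differences between -0.21 (MAPKAPK3) and 0.27 (MAP2K6), and MAPK12 was at -0.17. MAP2K6 was dim, with detection p-values of 0.0162 to 0.0324.

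**Figure D4:**
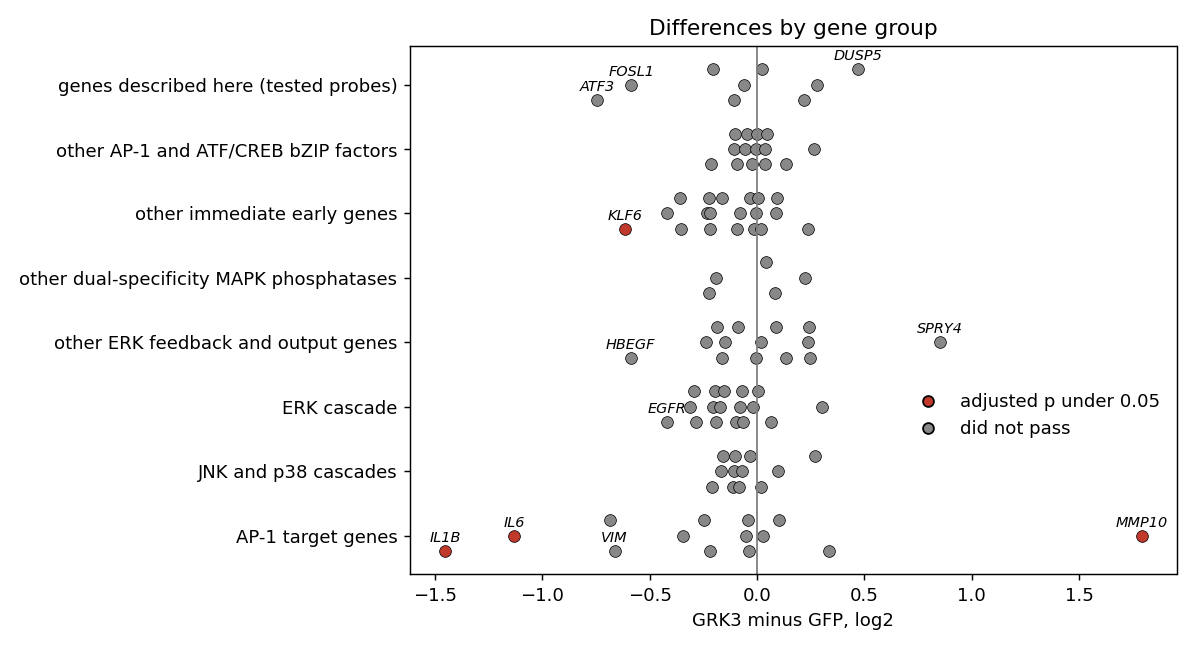
Difference between GRK3 and GFP cells (horizontal axis, log2) for the 9 tested probes of the immediate early and feedback genes (top row) and for each tested gene of 7 related lists; points are offset vertically for legibility and red points passed at a limma adjusted p under 0.05. KLF6, IL1B and IL6 passed on the negative side and MMP10 on the positive side.

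The genes most like the mean centred profile of the 8 tested genes, by Pearson correlation over the 6 arrays among 10578 other genes, were DGKD, NUMBL, CSNK2A1, EFTUD2 and LPAR3, with r from 0.983 to 0.993. The profile itself was lowest on GRK3 replicate 1 (-0.16) and highest on GFP replicate 2 (0.12), on the log2 scale. The 6 arrays are the only points behind each r, and all genes on an array share its RNA and hybridisation.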

How the data were processed

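The deposited non-normalized table holds, per the file headers, average bead intensity (linear scale) for every probe on every array, with a detection p-value from the negative controls. The sources used here name no scanner software. The authors' value table holds the same intensity times 1 factor per array, which gives every column the same mean (1292), with column medians from 131.6 to 140.7; its scale was settled by that comparison. Intensity was corrected and normalized with neqc (limma 3.58.1, R 4.3.3, offset 16), and the log2 values of 14130 probes detected (p under 0.05) on at least 3 of 6 arrays were compared with limma's lmFit and eBayes (moderated, two-sided, no covariates; Benjamini-Hochberg adjustment). Differences are GRK3 minus GFP. The number of arrays limits the precision.

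Probes took symbols from the platform annotation: 21834 of 24526 were named, 21813 matched RefSeq by Entrez identifier, and 0 symbols changed. The genes and lists were chosen with earlier results of these data known. Named are all probes of the 10 genes and, per list, up to 4 genes that passed and the 3 others with the largest differences, besides the 5 most alike genes. Housekeeping and AP-1 target lists are given in the closing section. The fit was tested on simulated data. Alternatives covered background, offset, scaling, filters, variance trend, array weights, replicate block and each array left out. A slide block was not run, since the headers give no slide.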

Additional observations from a re-analysis of the deposited data

How the results depend on the processing

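Of 144 results of the 9 probes under 16 alternatives, 130 kept their sign and side of the threshold, 9 passed where the reported fit had not, and 5 changed sign. The count of the 9 probes that passed was 0 as reported, 2 (FOSL1 and ATF3) without background correction, with the authors' value table and with an intensity trend, and 1 (FOSL1) with an offset of 50 and with array weights. It was 0 to 1 with each array left out in turn, the 1 being FOSL1 without GRK3 replicate 1. The count over all tested probes was 81 as reported, 140 without background correction, 122 with an offset of 50, 136 with an intensity trend, 239 with array weights, 23 with no filter on dim probes, and 23 to 190 with an array left out, the highest without GRK3 replicate 1. The count of listed related genes was 4 as reported, 7 without background correction, with the authors' value table and with an intensity trend, 9 with array weights, and 3 to 8 with an array left out, the highest again without GRK3 replicate 1. Signs changed at the dimmer DUSP6 probe (-0.016 with the authors' value table, -0.025 and -0.031 without GFP replicates 1 and 3, -0.22 when GRK3 replicate 2 was left out, against 0.26 when GRK3 replicate 1 was), at JUN (0.0077 without GFP replicate 3, down to -0.13 without GRK3 replicate 1) and at GUSB (-0.017 without GFP replicate 2, up to 0.12 without GFP replicate 3). The cause was not tested.

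Deviations from the group means, over all tested probes, correlated at r = -0.41, 0.18 and -0.41 between arrays that share replicate numbers 1 to 3. Between arrays of unlike number, r ran from -0.21 to 0.51, the highest for GRK3 replicate 1 with GFP replicate 3. With 3 arrays per group the deviations constrain each other, so these values cannot decide whether the numbers pair arrays. With the replicate block 11 of all tested probes, 0 of the 9 probes and 3 listed genes passed, KLF6 being the listed gene lost (limma adjusted p = 0.184). EGR1 and the second ATF3 probe lay within background, so differences in them were not detectable at this signal.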

Other observations

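Known AP-1 target genes included calls in both directions. Of 14 tested, IL6 and IL1B, which encode inflammatory cytokines, fell, MMP10, the metalloproteinase stromelysin-2, rose, and 11 did not pass with limma, with a median difference of -0.14 on the log2 scale; of all tested probes, 0.573% passed. At an unadjusted p under 0.05, 4 of the 14 were lower and 2 higher, against 5.44% and 6.14% of all probes. MMP10 read 7.90, 8.64 and 8.50 on GRK3 arrays and 6.68, 6.65 and 6.34 on GFP arrays, a difference of 1.79 ± 0.18 (SE; limma adjusted p = 0.00279). IL6 read 7.61, 7.51 and 7.45 on GRK3 arrays and 8.62, 8.65 and 8.68 on GFP arrays, and it fell by 1.13 (limma adjusted p = 0.000825). IL1B fell by 1.45 (limma adjusted p = 0.00179). These 3 genes passed in each of the 16 alternatives. MMP10 was dim in GFP cells, with deposited signals of 149, 167 and 148 and detection p-values of 0.0194 to 0.0227. Its difference ran from 1.22 with the authors' value table to 2.01 without GRK3 replicate 1. IL11, which only 1 of the 3 GRK3 arrays detected, VIM and CXCL8 differed by -0.68, -0.66 and -0.34, with limma adjusted p-values of 0.0908, 0.0645 and 0.634. Without GRK3 replicate 1 IL11 (-0.86, limma adjusted p = 0.00677) and VIM (-0.74, 0.0365) passed and CXCL8 was at -0.059. GRK3 replicate 1 was the only GRK3 array that detected IL11. Without it, the IL11 call compared GRK3 arrays that did not detect IL11 with GFP arrays that did, so the size of that difference is uncertain. With all arrays but no background correction, the IL11 difference was -0.39 and did not pass. VIM passed in 6 of 16 alternatives and IL11 in 2 of 15. Several of these genes also answer to NF-kB, and the list was chosen with earlier results of these data known.

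Of 7 tested housekeeping genes, 0 passed with limma and 0 had an unadjusted p under 0.05, with a median difference of -0.03. ACTB, GUSB and TBP differed by -0.13, 0.06 and -0.06.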
